A study of Mus musculus with 6 samples.

Results

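Notch signaling in the tracheal epithelium was followed through 10 genes: the receptors Notch1, Notch2 and Notch3, the ligands Jag1, Jag2 and Dll1, the receptor modifier Lfng, and the target genes Hes1, Hey1 and Nrarp. Every probe set that the array annotation gives to exactly 1 of these symbols was taken, 18 of the 45037 probe sets tested and 10 of the 18193 genes they name.

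Epithelium at 48 h post injury (48 hpi) came from mice that had breathed 500 ppm SO2 for 4 h, a gas that kills the luminal cells of the trachea and leaves basal stem cells to rebuild the layer. Control epithelium came from normal tracheas without this injury. All mice were C57Bl/6 males, 8 to 12 weeks old by the study's methods for the exposure. In both groups the epithelium was freed with proteases, leukocytes carrying CD45 were depleted, and the cells of 4 tracheas were pooled for each of the 3 arrays. Each value is therefore an average over 4 animals and over all epithelial cell types, in which fewer cells of a type and less RNA per cell cannot be told apart.

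Notch receptors are single-pass membrane proteins that are cut when a ligand on a neighbouring cell pulls on them. The freed intracellular part enters the nucleus, joins the DNA-binding protein RBPJ and switches on genes of the Hes and Hey families, which encode repressors. In the airway, Notch activity in the progeny of basal cells favours the secretory fate over the multiciliated fate.

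Expression is given as log2 values after robust multi-chip analysis (RMA), in which 1 unit is a doubling. A probe set was called higher or lower where limma's test gave an adjusted p under 0.05 over all 45037 probe sets. Probe sets for odorant, vomeronasal and trace amine receptors, 81 in all, gave a background level for each group, the mean that 95% of them did not exceed. It was 4.81 at 48 hpi and 4.93 in control, and 17 of the 18 Notch probe sets were above it in both groups. Arrays of 1 group correlated at 0.990 or more at 48 hpi and 0.992 or more in control. The added hybridization controls averaged 10.90 to 11.14 at 48 hpi and 11.15 to 11.68 in control, so a scaling that makes them equal adds 0.34 to every change. The difference between 3′ and 5′ probe sets for actin, a sign of RNA integrity, was 0.58 to 1.17 at 48 hpi and 0.88 to 1.22 in control.

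Of the 18 probe sets, 6 were lower at 48 hpi, 0 were higher and 12 were not called. The 6 belonged to Notch2, Notch3, Jag1, Dll1, Hes1 and Hey1, so that receptors, ligands and targets each had 2 lower probe sets. They made up 33.3% of the probe sets, beside 13.9% of all probe sets called lower and 14.5% called higher. At an unadjusted p under 0.05 there were 7 (38.9%), all of them lower, where 38.6% of all probe sets were under it in either direction, and the methods' t-test also called 0 higher. Taking for each gene the probe set with the highest mean, 5 of 10 genes (50%) were lower and 0 higher, against 16.1% and 18.4% of all genes. In 7 probe sets (38.9%) every 48 hpi array lay below every control array, as in 22.4% of all probe sets, and in 0 every 48 hpi array lay above, as in 21.0% of all. The median change was −0.10 over the 18, against −0.03 over all probe sets. With the hybridization controls made equal, 2 of the 18 stayed lower, Notch2 1455556_at and Hey1.

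**Figure D1:**
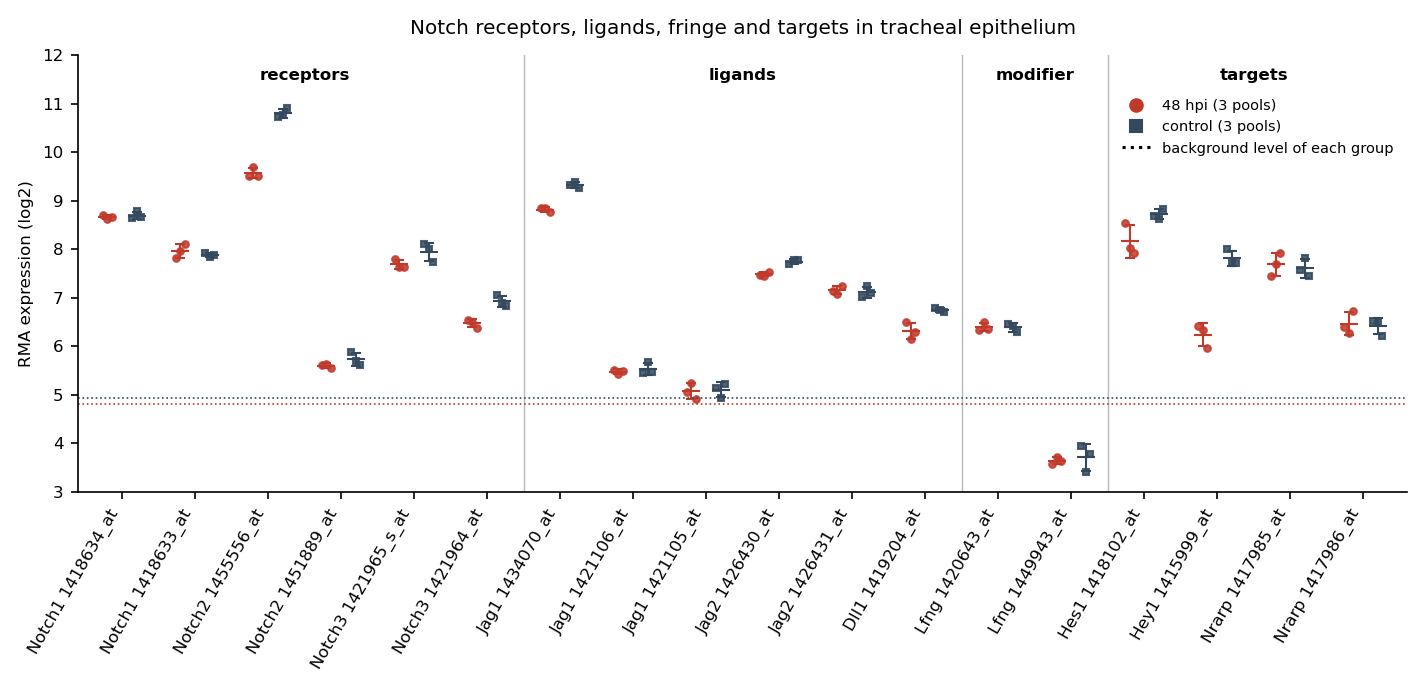
RMA expression (log2) of every probe set of the Notch genes in the 3 arrays of 48 hpi (red circles) and the 3 arrays of control (dark squares), with the group mean and SD as bars and each group's background level as a dotted line. Notch2 1455556_at and Hey1 have the widest gaps between groups, and Lfng 1449943_at lies under the background level in all 6 arrays.

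Markers of the cell types in these samples moved too. Secretory cell markers were lower for 8 of 10 genes and higher for 0, with a summed linear level of 49370 to 85516 at 48 hpi and 117169 to 119399 in control, lowest in 48 hpi replicate 3. Basal cell markers were higher for 4 of 10 and lower for 2, with a summed level of 21643 to 24648 at 48 hpi and 17096 to 18019 in control. Krt5, a keratin of basal cells, averaged 11.90 ± 0.18 at 48 hpi and 11.21 ± 0.08 in control (SD, n = 3 each), a change of 0.69 (adjusted p = 0.00285). Krt15, the brightest basal marker, was not called, with a change of 0.15 (adjusted p = 0.349), and the genes that were lower were Ngfr, which fell by 0.66 (adjusted p = 0.00878), and Pdpn, which fell by 0.35 (adjusted p = 0.0384). General epithelial markers were above background in both groups for all 8 genes, and 3 of them were higher.

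Multiciliated cell markers were mostly not called, with 1 of 11 higher and 2 lower, and a summed level of 3411 to 4533 at 48 hpi and 3141 to 4275 in control. The brightest, the tubulin gene Tubb4b, was not called, with a change of 0.08 (adjusted p = 0.589). The gene that was higher, Myb, encodes a transcription factor of multiciliated precursors, with a change of 1.19 (SE 0.22, adjusted p = 0.00495). Those that were lower were Cfap126, which fell by 1.44 (adjusted p = 0.025), and Dnah5, an axonemal dynein gene below background in both groups. Leukocyte markers were lower for 2 of 9 and higher for 0, and their sum was 598 to 5465 at 48 hpi, against 12667 to 15294 in control. The brightest of these markers was Lyz2, the lysozyme of macrophages, at 10.64 ± 1.91 at 48 hpi and 13.77 ± 0.15 in control (SD, n = 3 each), while Ptprc, which encodes CD45 itself, was below background in both groups.

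Markers of fibroblasts and cartilage summed to 338 to 793 at 48 hpi and 1201 to 1701 in control, with 1 of 8 lower, the matrix gene Dcn, and 0 higher. The median change of the 8 was 0.21, against the direction of the sum, and 4 were above background at 48 hpi and 2 in control. Smooth muscle and pericyte markers were lower for 2 of 9 and higher for 0, with sums of 249 to 285 at 48 hpi and 271 to 311 in control. Of 9 endothelial markers, 7 were below background in both groups, among them the defining Pecam1 and Cdh5, and 0 were called (summed level 150 to 161 at 48 hpi, 149 to 167 in control). Neuroendocrine and neural markers had 0 of 5 called, with sums of 120 to 137 at 48 hpi and 140 to 158 in control. What part these cell types had in the Notch values was not tested.

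**Figure D2:**
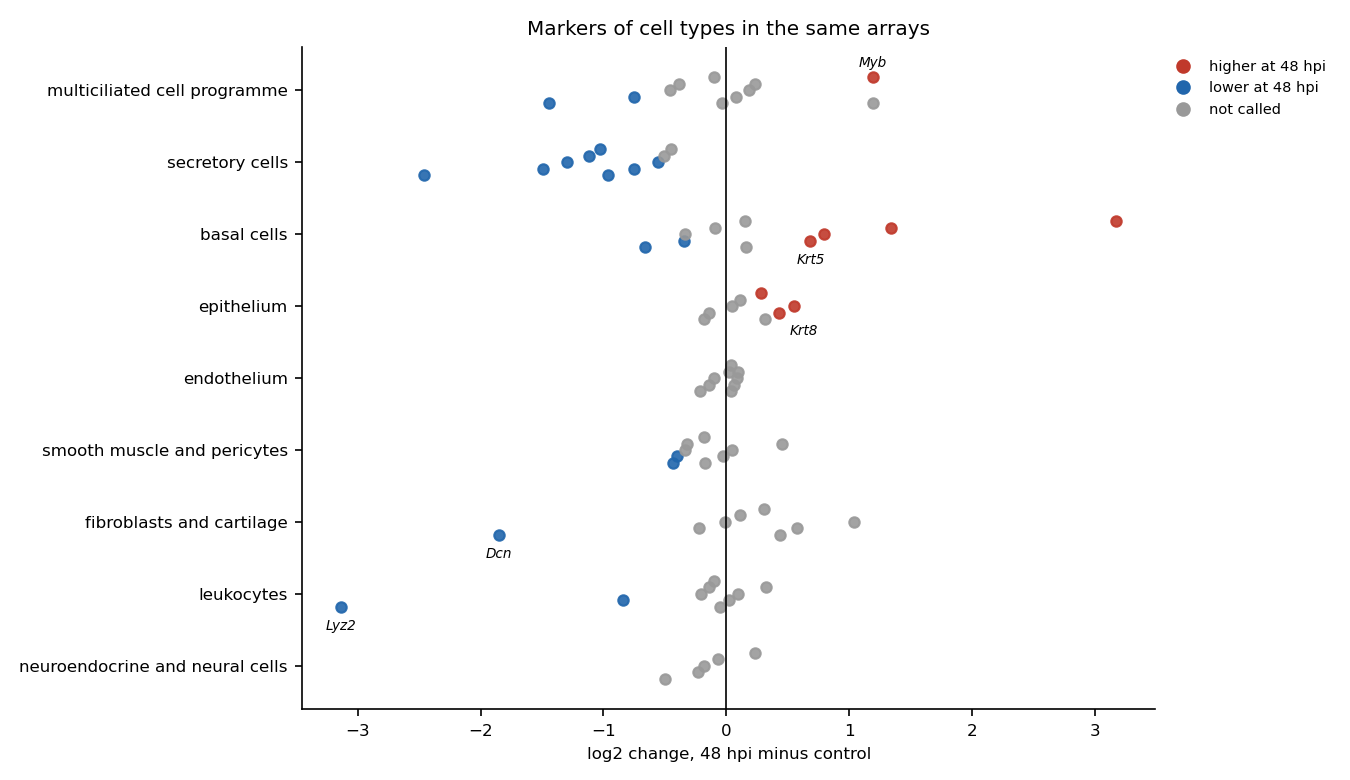
Log2 change (48 hpi minus control) of cell type markers, 1 point per gene on its probe set with the highest mean, in red where higher, blue where lower and gray where not called. Secretory markers lie to the left, with 8 of 10 lower, and basal markers are spread on both sides, with 4 higher and 2 lower.

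Among the receptors, Notch2 fell on 1 of 2 probe sets, Notch3 fell on 1 of 2, and Notch1 was not called on either probe set. Notch2 1455556_at read 9.51, 9.70 and 9.52 in 48 hpi replicates 1 to 3, against 10.73, 10.77 and 10.91 in control replicates 1 to 3. All 48 hpi arrays were low, with more than a full log2 unit between the highest of them and the lowest control array. The change was −1.23 (SE 0.10, 95% interval −1.45 to −1.0, adjusted p = 0.000127), which left 42.7% of the control level. The call held under all 19 alternatives, with changes of −1.35 to −0.89.

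The second Notch2 probe set, 1451889_at, gave no call. Its values were 5.62, 5.64 and 5.55 at 48 hpi, against 5.88, 5.70 and 5.62 in control, so the groups overlapped. The change of −0.13 (SE 0.10, interval −0.36 to 0.09, adjusted p = 0.362) was 1.1 smaller in size than that of the other probe set, the widest gap between probe sets of 1 gene among the 7 Notch genes with several.

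Notch3, a receptor best known from vascular smooth muscle and also made by airway epithelium, was called on 1 of 2 probe sets. On 1421964_at the arrays gave 6.55, 6.51 and 6.39 at 48 hpi, against 7.06, 6.90 and 6.84 in control. The groups did not overlap, and Notch3 fell by 0.45 (SE 0.10, interval −0.67 to −0.22, adjusted p = 0.0103), to 73.3% of control. Under 2 of 18 alternatives this call was lost, equal hybridization controls (−0.10, adjusted p = 0.747) and an adjusted p below 0.01. On 1421965_s_at the values were 7.80, 7.64 and 7.64 at 48 hpi and 8.1, 8.0 and 7.75 in control. Control replicate 3 lay among the 48 hpi arrays, and the change of −0.26 (SE 0.11, interval −0.52 to 0.01) missed the threshold (adjusted p = 0.139). Of the 9 pericyte and smooth muscle markers, 2 were lower at 48 hpi, 0 were higher and the median change was −0.18. Background was exceeded by 4 of the 9 at 48 hpi and by 3 in control. The brightest were Tagln, at 5.65 at 48 hpi and 5.82 in control, and Des, at 5.63 at 48 hpi and 5.81 in control, both not called, while Pdgfrb, Rgs5, Myh11, Cnn1 and Lmod1 were below background in both groups. The part of these cells in the Notch3 values was not tested.

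Notch1, a broadly expressed receptor, gave 8.72, 8.62 and 8.67 at 48 hpi on 1418634_at, against 8.64, 8.79 and 8.66 in control. Its second probe set, 1418633_at, gave 7.82, 7.97 and 8.11 at 48 hpi, against 7.93, 7.84 and 7.88 in control. The groups overlapped on both. The changes were −0.03 (interval −0.23 to 0.17, adjusted p = 0.865) and 0.08 (interval −0.15 to 0.31, adjusted p = 0.601), so a loss the size of that of Notch2 1455556_at lay outside both intervals.

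The receptors were also set against each other within each array, on the probe set of each with the highest mean. Between 48 hpi and control, the log2 difference Notch1 minus Notch2 changed by 1.2, Notch1 minus Notch3 by 0.23, and Notch2 minus Notch3 by −0.97. Both differences with Notch2 rest on 1455556_at. The pairs were not compared on 1451889_at, which changed by −0.13 and was not called. The groups did not overlap in any of the 3 pairs. Each had an exact permutation p of 0.1, two-sided, the smallest that 3 against 3 arrays can give, and 0.15 after adjustment over the 9 pairs compared.

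The ligands Jag1 and Dll1 fell, and Jag2 lay at the threshold. Jag1 encodes Jagged1, a ligand of the Serrate type, and its probe set 1434070_at read 8.85, 8.84 and 8.77 at 48 hpi, against 9.32, 9.40 and 9.27 in control. All 48 hpi arrays were below all control arrays. Jag1 fell by 0.51 (SE 0.08, interval −0.70 to −0.31, adjusted p = 0.00318), to 70.3% of control. This call was lost under 1 of 19 alternatives, equal hybridization controls (−0.16, adjusted p = 0.604).

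The other Jag1 probe sets were dimmer and not called. On 1421106_at the arrays ranged from 5.42 to 5.52 at 48 hpi and from 5.45 to 5.68 in control, with a change of −0.05 (adjusted p = 0.729). On 1421105_at they ranged from 4.92 to 5.25 at 48 hpi and from 4.93 to 5.23 in control, with a change of −0.03 (adjusted p = 0.894). Both lay within 1 log2 unit of the background level, and the groups overlapped on both.

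Dll1, a Delta-type ligand with 1 probe set, gave 6.5, 6.16 and 6.29 at 48 hpi, against 6.80, 6.74 and 6.72 in control. Every 48 hpi array was lower than every control array, with the 48 hpi arrays spread more widely. Dll1 fell by 0.44 (SE 0.11, interval −0.68 to −0.19, adjusted p = 0.0174), to 74.0% of control. Under 5 of 19 alternatives this call was lost. Without 48 hpi replicate 2 the change was −0.36 (adjusted p = 0.0604), and without control replicate 2 it was −0.44 (adjusted p = 0.0548). The others were the methods' t-test (adjusted p = 0.0637), equal hybridization controls (−0.09, adjusted p = 0.776) and an adjusted p below 0.01.

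Jag2 encodes the second Jagged ligand. On 1426430_at it read 7.48, 7.45 and 7.54 at 48 hpi, against 7.69, 7.77 and 7.79 in control. The groups did not overlap, yet the change of −0.26 (SE 0.08, interval −0.45 to −0.07) just missed the threshold (adjusted p = 0.0508). It was called lower under 6 of 19 alternatives, among them the fit with 1 probe set per gene (adjusted p = 0.0384), and was 0.08 with equal hybridization controls. On 1426431_at the values of 7.14, 7.08 and 7.25 at 48 hpi overlapped with 7.01, 7.24 and 7.10 in control, and the change was 0.04 (interval −0.18 to 0.27, adjusted p = 0.808).

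Within arrays, Jag1 minus Jag2 changed by −0.25 between 48 hpi and control without overlap (exact permutation p = 0.1, two-sided, 0.15 adjusted over the 9 pairs). Jag1 minus Dll1 changed by −0.07 (exact p = 0.5, 0.5 adjusted) and Jag2 minus Dll1 by 0.18 (exact p = 0.3, 0.338 adjusted), with overlapping groups in both. The ligand pairs rest on 1434070_at for Jag1 and 1426430_at for Jag2, their probe sets with the highest mean.

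Lfng encodes lunatic fringe, a glycosyltransferase that alters which ligands a Notch receptor answers to, and it was not called on either probe set. On 1420643_at it read 6.35, 6.5 and 6.35 at 48 hpi, against 6.47, 6.42 and 6.29 in control, a change of 0.01 (SE 0.09, interval −0.21 to 0.22, adjusted p = 0.974). The groups overlapped, and a smaller change in either direction lay within the interval. On 1449943_at it was below background in all 6 arrays, at 3.58 to 3.72 at 48 hpi and 3.41 to 3.95 in control.

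RefSeq promoter windows on GRCm38.p6 ran from 250 bases before to 50 bases after a gene's start. Hes1 and Hey1 had none, so their promoters were not searched. Windows were found for the other 8 of the 10 genes, 9 windows in all. They were searched on both strands for TGGGAA, the core of the site that RBPJ binds, and for GTGGGAA, which holds the same core. TGGGAA was found in 1 of the 9 windows, that of Lfng, and in 25.6% of all 32851 windows of this length. GTGGGAA was in the same window, and in 6.38% of all. The 2 matches of Lfng lay on chromosome 5, and are shown because they were the only ones among the Notch genes searched, with the core in capitals on the strand of the gene.
Lfng chr5:140607194-140607223: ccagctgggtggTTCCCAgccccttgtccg
Lfng chr5:140607221-140607250: ccgtatcccacgTGGGAAggagagatctcc
In the line that comes first the core is on the opposite strand and begins 135 bases before the start of Lfng, and in the other it begins 108 bases before it. These are matches of letters, and binding was not measured.

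**Figure D3:**
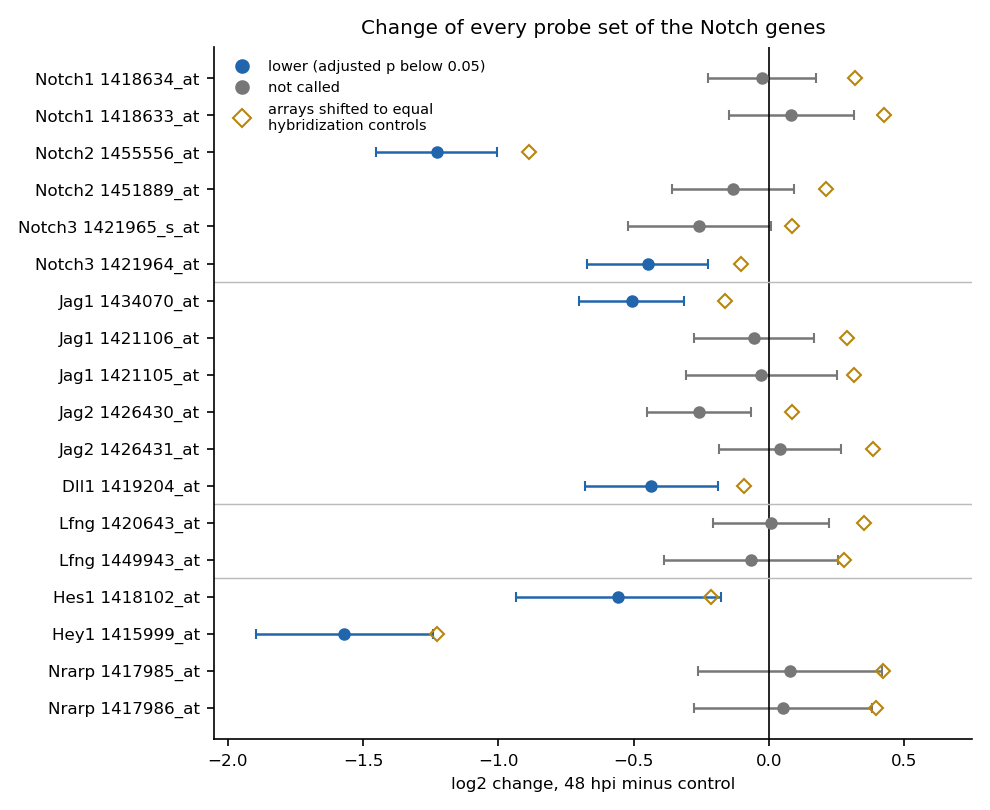
Log2 change (48 hpi minus control) of each of the 18 probe sets with its 95% interval, in blue where lower and in gray where not called, and, as open diamonds, the change once the hybridization controls had been made equal. All 6 called probe sets lie left of 0, Hey1 and Notch2 1455556_at stay beyond −0.5 after the shift, and 16 probe sets are not called after it.

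Of the target genes, Hey1 showed the largest change of the 18 probe sets. Hey1 encodes a repressor of the Hairy family that Notch switches on directly. Its arrays gave 6.42, 6.33 and 5.97 at 48 hpi, against 8.0, 7.72 and 7.72 in control. All 48 hpi arrays were more than a log2 unit below all control arrays. Hey1 fell by 1.57 (SE 0.14, interval −1.89 to −1.24, adjusted p = 0.00022), to 33.7% of control (26.9% to 42.2%). The call held under all 19 alternatives, with changes of −1.66 to −1.23.

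Hes1, a repressor that answers to Notch and to other signals, gave 8.55, 8.02 and 7.92 at 48 hpi, against 8.69, 8.63 and 8.84 in control. The groups did not overlap, but 48 hpi replicate 1 lay just under the lowest control array, apart from the other two. Hes1 fell by 0.56 (SE 0.16, interval −0.94 to −0.18, adjusted p = 0.0368), to 68.0% of control. The call was lost under 10 of 19 alternatives, with adjusted p of 0.118 without 48 hpi replicate 2, 0.0951 without 48 hpi replicate 3, 0.0739 without control replicate 1, 0.0745 without control replicate 2 and 0.117 without control replicate 3. Without 48 hpi replicate 1 the change was −0.75 (adjusted p = 0.00362), and over all 19 it ranged from −0.75 to −0.21. That replicate had the highest summed level of leukocyte markers of the 48 hpi arrays, 5465, below the 12667 to 15294 of control. Lyz2 was the brightest of these markers, and Ptprc was below background in both groups. Whether this sum bears on the Hes1 value of that replicate was not tested.

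Nrarp encodes a short ankyrin repeat protein that Notch induces and that in turn restrains Notch. On 1417985_at it read 7.45, 7.70 and 7.92 at 48 hpi, against 7.57, 7.82 and 7.44 in control, and on 1417986_at 6.40, 6.27 and 6.73 at 48 hpi, against 6.52, 6.51 and 6.22 in control. The groups overlapped on both probe sets, and 48 hpi replicate 3 was the highest array on both. The changes were 0.08 (SE 0.15, interval −0.26 to 0.42, adjusted p = 0.751) and 0.05 (SE 0.14, interval −0.28 to 0.38, adjusted p = 0.833).

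The 3 targets were set against each other within each array in the same way. Hes1 minus Hey1 changed by 1.01 between 48 hpi and control, and Hey1 minus Nrarp by −1.65, both without overlap (exact permutation p = 0.1, two-sided, 0.15 adjusted over the 9 pairs). Hes1 minus Nrarp changed by −0.63 with overlapping groups (exact p = 0.2, 0.257 adjusted).

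Other genes of the pathway were counted from 5 lists, each gene on its probe set with the highest mean. Of 50 genes measured, out of 55 listed, 6 (12%) were higher at 48 hpi, 16 (32%) were lower and 28 were not called, and the median change was −0.11. Over all genes 18.4% were higher and 16.1% lower. With equal hybridization controls 7 of the 50 were higher and 1 lower, so the balance between directions turned with the scaling.

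The nuclear complex had 6 of 13 genes lower and 2 higher. Rbpj, the DNA-binding partner of the cut receptor, gave 7.65, 7.65 and 7.35 at 48 hpi, against 8.25, 8.60 and 8.56 in control, on 1454896_at. The groups did not overlap, and Rbpj fell by 0.93 (SE 0.13, adjusted p = 0.00152), to 52.7% of control, a call lost only with equal hybridization controls among 19 alternatives (adjusted p = 0.0646). Its other probe sets, 1448957_at and 1418114_at, were not called, with changes of 0.00 and −0.13. Kat2b, a histone acetyltransferase of the complex, fell by 0.56 (adjusted p = 0.0028) on the brightest of 3 probe sets. The histone deacetylase Hdac1 rose by 0.53 (adjusted p = 0.00305). Tle4, a Groucho-type corepressor that Hes proteins recruit, rose by 0.50 (adjusted p = 0.00461) on the brightest of 3 probe sets. The other Tle4 probe sets were below background and not called, with changes of −0.06 and 0.17. Its relatives Tle2 and Tle3 were lower, with changes of −1.20 (adjusted p = 0.0179) and −0.34 (adjusted p = 0.0451, on the brightest of 4). Tle1 was not called, at 0.24 (adjusted p = 0.0697).

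Regulators of endocytosis and turnover had 7 of 12 genes lower and 1 higher. The gene that was higher, Neurl1b, encodes a ubiquitin ligase of the Neuralized family, which acts on Notch ligands. It gave 7.69, 7.70 and 7.79 at 48 hpi, against 6.38, 6.43 and 6.05 in control. All 48 hpi arrays were high, and Neurl1b rose by 1.44 (SE 0.12, interval 1.17 to 1.71, adjusted p = 0.00014), to 271% of control, under all 19 alternatives. Its relative Neurl1a fell by 0.42 (adjusted p = 0.0112) on the brightest of 6 probe sets. The Deltex ubiquitin ligases Dtx3 and Dtx1 fell by 0.65 (adjusted p = 0.0122) and 0.38 (adjusted p = 0.0133). For Dtx1 this was the brighter of 2 probe sets. The other was below background and not called, with a change of 0.22 (adjusted p = 0.0855).

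Enzymes that glycosylate or cut the receptor had 3 of 12 genes higher and 2 lower. Adam17, a membrane protease able to shed Notch, averaged 8.88 ± 0.09 at 48 hpi and 8.26 ± 0.19 in control (SD, n = 3 each), a change of 0.61 (adjusted p = 0.00571) on the brightest of 3 probe sets. The other Adam17 probe sets were not called, with changes of 0.22 (adjusted p = 0.0903) and 0.13 (adjusted p = 0.475). Rfng, radical fringe, rose by 0.48 (adjusted p = 0.0124) on 1 of 2 probe sets, and the other was not called, at 0.27 (adjusted p = 0.105). Aph1b, a subunit of γ-secretase, fell by 0.77 (adjusted p = 0.00186), and its second probe set fell by 0.69 (adjusted p = 0.00267). Pofut1, which adds the fucose that fringe enzymes extend, fell by 0.44 (adjusted p = 0.0231) on 1 of 3 probe sets. The others were not called, with changes of −0.08 and 0.19. The call was lost under 7 of 19 alternatives, among them a common median (−0.35, adjusted p = 0.0516) and equal hybridization controls (−0.09, adjusted p = 0.775). It was also lost without 48 hpi replicate 1 (−0.42, adjusted p = 0.0647), 48 hpi replicate 3 (−0.39, adjusted p = 0.0601) or control replicate 3 (−0.33, adjusted p = 0.0708).

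The remaining receptor and ligands had 1 of 6 genes called, Dner, a non-canonical ligand that was below background in both groups. Notch4, Dll3 and Dll4 were below background in both groups as well. Of 7 other Hes and Hey genes, 0 were called in either direction and 3 had means above background in both groups. Their changes were 0.09 for Hes5 (adjusted p = 0.504), −0.05 for Hes6 (adjusted p = 0.856) and −0.17 for Hes7 (adjusted p = 0.25). Hes7 lay near the background level, at 4.87 at 48 hpi and 5.04 in control, with 2 of 3 arrays above it in each group.

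**Figure D4:**
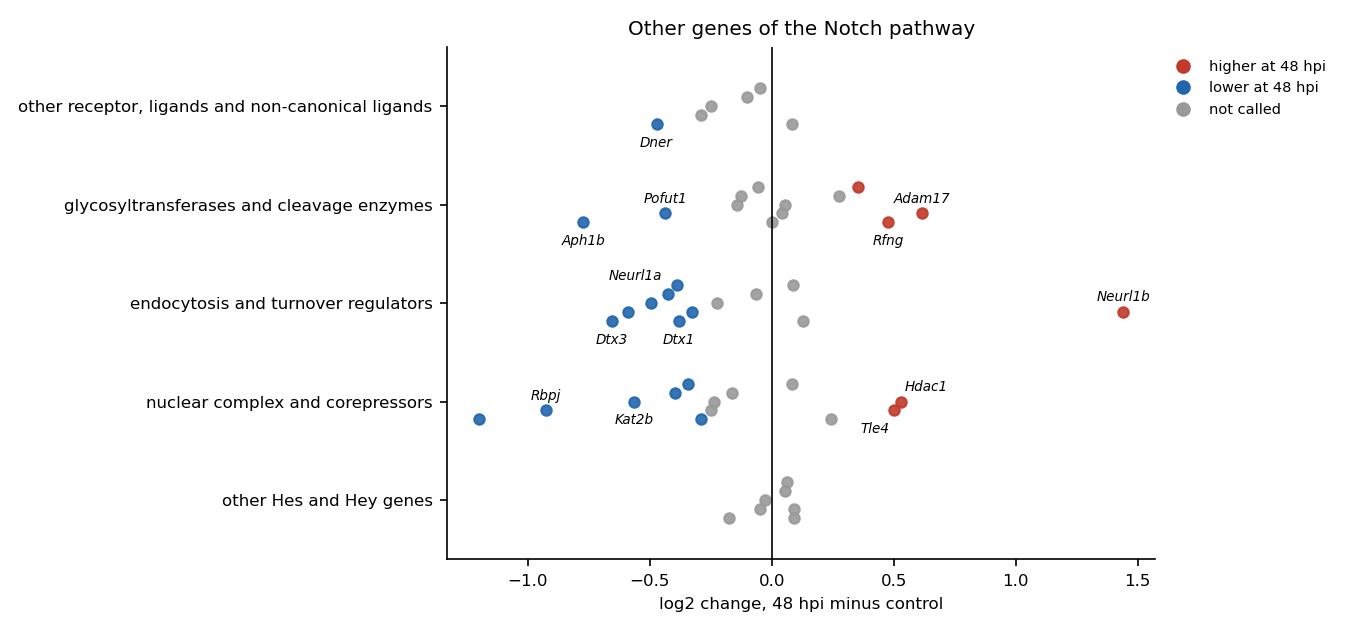
Log2 change (48 hpi minus control) of the other Notch pathway genes, 1 point per gene on its probe set with the highest mean, in red where higher, blue where lower and gray where not called. Neurl1b stands alone at 1.44 on the right, lower genes gather among the endocytosis regulators (7 of 12) and the nuclear complex (6 of 13), and 0 of 7 other Hes and Hey genes were called.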

How the data were processed

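The arrays compared were 3 of 48 hpi and 3 of control epithelium, grouped by their treatment labels. The authors amplified the RNA with MessageAmp Premier, hybridized it to Mouse Genome 430 2.0 arrays and normalized the signals by RMA in Partek 6.5, and the submitters' processing notes also name Affymetrix Expression Console 1.1. The deposited log2 values ran from 2.01 to 14.6, without detection calls or depths, and the number of arrays limits the precision. RMA forces the arrays to a like distribution, which can hide a change shared by most genes. Of 45101 probe sets 64 controls were left out. The array annotation gave 34945 of the rest 1 symbol, 932 several and 9160 none, and the Entrez IDs of all 18 Notch probe sets matched RefSeq symbols.

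The difference between groups was fitted by lmFit and eBayes of limma 3.58.1 (R 4.3.3), and p-values were adjusted over all 45037 probe sets by the Benjamini-Hochberg method. Differences between genes within arrays were compared with an exact permutation test (scipy 1.17.1). The fit was tested on simulated data with known changes, of which it missed the smaller ones more often, so a probe set that is not called may still have changed. Probe sets of a gene are not replicates. The summed level of a marker list adds the anti-logged values of its genes. Alternatives were other filters, fits, scalings and thresholds, an ordinary t-test, the replicate block, array weights and leaving out each array. The methods' analysis of variance also used mesenchyme, which was not analysed here. The genes and lists were chosen with earlier results of these data known. All Notch genes were named, and of each pathway list at most 4 called genes with the smallest p. The Tle genes other than Tle4 were added after their values were seen. Of the marker lists, counts, sums and at most 2 genes with the highest mean were named, and, beyond these rules and after their values were seen, a few called or defining markers, and ligands, receptors and Hes genes by whether they were above background.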

Additional observations from a re-analysis of the deposited data

How the results depend on the processing

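The scaling mattered most. Shifting the arrays to equal hybridization controls added 0.34 to every change and made 84.5% of all calls higher (8064 higher, 1480 lower), against 51.0% as reported (6512 higher, 6267 lower), while a common median gave 64.1% (8068 higher, 4522 lower). Lower Notch probe sets numbered 2 with equal hybridization controls and 3 at an adjusted p below 0.01, against 6 as reported, and 4 to 6 when each array was left out. Lower pathway genes numbered 10 with a common median, 1 with equal hybridization controls and 4 at an adjusted p below 0.01, against 16 as reported. They numbered 8 to 12 when each array was left out, with 8 without control replicate 3 and 10 without 48 hpi replicate 1 or 3. The number of Notch probe sets called higher was 0 under every alternative.

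With the replicate block 6 Notch probe sets and 14 pathway genes were lower, and 6 pathway genes were higher. Deviations of arrays with the same number correlated at 0.204, 0.0824 and 0.193, and each array correlated best with its own number, a hint from the data and not from the design.

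Of 332 values of Notch probe sets under the alternatives, 272 kept their direction and call, 18 lost the call, 7 gained one and 35 changed sign, all of the last among probe sets not called. With equal hybridization controls these were Notch1 1418634_at at 0.32, Notch2 1451889_at at 0.21, Notch3 1421965_s_at at 0.086, Jag1 1421106_at at 0.29 and 1421105_at at 0.31, Jag2 1426430_at at 0.084 and Lfng 1449943_at at 0.28. With a common median they were Notch1 1418634_at at 0.056, Jag1 1421106_at at 0.027 and 1421105_at at 0.053, and Lfng 1449943_at at 0.016. With repeated quantile normalization they were Notch1 1418633_at at −0.027, Jag1 1421106_at at 0.018 and 1421105_at at 0.048, Jag2 1426431_at at −0.036, Lfng 1420643_at at −0.012 and Nrarp 1417985_at at −0.034. With array weights they were Jag1 1421105_at at 0.067, Jag2 1426431_at at −0.027, Lfng 1449943_at at 0.032, and Nrarp 1417985_at at −0.0018 and 1417986_at at −0.034. Leaving out each array gave −0.053 to 0.019 for Notch1 1418634_at, −0.099 to 0.017 for Jag1 1421106_at, −0.12 to 0.047 for Jag1 1421105_at, −0.012 to 0.10 for Jag2 1426431_at, −0.045 to 0.042 for Lfng 1420643_at, −0.22 to 0.055 for Lfng 1449943_at, −0.037 to 0.20 for Nrarp 1417985_at, −0.080 to 0.15 for Nrarp 1417986_at, and −0.16 to 0.0038 for the difference of Jag1 minus Dll1. The cause was not tested.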
